A study of Homo sapiens with 6 samples.

Results

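Small nucleolar RNA host genes are transcribed by RNA polymerase II and carry small nucleolar RNAs (snoRNAs) or small Cajal body RNAs (scaRNAs) inside their introns. After splicing, the excised intron is debranched and trimmed to the small RNA, which guides methylation or pseudouridylation of ribosomal and spliceosomal RNA. Many host transcripts begin with a C and a run of pyrimidines, as the mRNAs of ribosomal proteins do, and many of the spliced forms hold short reading frames that ribosomes read. Such spliced forms are known substrates of nonsense-mediated decay, the pathway that removes RNAs whose translation stops early, so the level of a host RNA need not follow that of its snoRNA.

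The set was chosen by name from the rows of the deposited count table: genes whose GENCODE 29 symbol is SNHG plus a number, with GAS5, ZFAS1, DANCR, EPB41L4A-AS1, MEG8 and TAF1D. Of 60675 gene rows, 31 carried such a symbol and 28 reached the required total of 30 counts over the libraries. MEG8, with a total of 37 counts, and SNHG14, with 38, lay just inside this limit, and SNHG28, with 26 counts, lay just outside it, followed by SNHG27 with 2 and a separate protein-coding row also named SNHG28 with 0. TAF1D was the 1 protein-coding member, and the other 27 were noncoding. A filter on low counts left 25 members for testing among 18267 genes, and SNHG18, SNHG14 and MEG8 were not tested.

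The libraries hold total RNA of HEK293, a widely used human line derived from embryonic kidney. There were 3 control libraries of cells labelled wild type and 3 libraries labelled MOCS2 knockdown by RNA interference, and both kinds of cell were grown in high-glucose medium with serum and the selection drug Geneticin. MOCS2 encodes the subunits of molybdopterin synthase, and the comparison asks which RNAs differ when it is targeted. No source used here names the interfering agent, or says whether a line was 1 clone or the replicates were separate cultures. The p-values therefore cover only the spread between these libraries, which could be technical. The RNA of MOCS2 did not follow the label: it averaged 63.3 ± 4.83 CPM (read count scaled to library size; SD, n = 3) in the controls and 62.9 ± 5.99 CPM in the knockdown-labelled libraries (log2 fold change -0.01, edgeR adjusted p = 0.976). Every direction below is therefore that of the libraries so labelled, called knockdown 1, 2 and 3 for short.

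Reads on genes numbered 17958632 to 22171106 per library. Reads outside annotated genes made up 37.5% of uniquely aligned reads in knockdown 2 and 21.5% to 25% in the other 5 libraries. All 10 HEK293 genes checked, among them VIM, KRT8, KRT18 and NEFL, passed the filter on low counts, with PAX2 lowest at a mean of 1.345 CPM. Of 10 markers of leukocytes, endothelium, liver, muscle, fibroblasts, astrocytes and beta cells, 8 did not pass it, with INS at 0. PECAM1 and COL1A1 passed. COL1A1 was the highest of these markers, at 5.82 ± 0.621 CPM among controls and 6.66 ± 2.76 CPM in the knockdown-labelled libraries.

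Start-site sequences were searched for the pyrimidine run described above. A tract was defined as a C followed by 4 or more C or T on the gene's strand. RefSeq promoter sequences (GRCh38.p14) were found for 23 of the 28 members. A match to this definition began within 10 bases of the annotated start in 15 of the 23 (65.2%), against 33.5% of 35116 promoters, and within 3 bases in 10 of them (43.5%), against 13% of promoters. Among GENCODE 29 transcripts of the members, 36 of 293 (12.3%) began exactly with such a tract, against 2.41% of 206694 transcripts, including 6 of 29 for GAS5, 4 of 17 for SNHG12 and 3 of 10 for ZFAS1. Below are windows of 40 bases before and 20 from the annotated start, shown because these members recur in the results, with the run that holds the match in capitals, from its first C.
ZFAS1 (chr20:49278602-49278661, plus strand): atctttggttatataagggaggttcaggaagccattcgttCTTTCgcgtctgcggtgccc
SNHG12 (chr1:28581854-28581913, minus strand): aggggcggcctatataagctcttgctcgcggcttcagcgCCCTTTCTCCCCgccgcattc
SNHG5 (chr6:85678714-85678773, minus strand): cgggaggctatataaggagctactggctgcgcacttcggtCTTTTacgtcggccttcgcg
SNHG7 (chr9:136728165-136728224, minus strand): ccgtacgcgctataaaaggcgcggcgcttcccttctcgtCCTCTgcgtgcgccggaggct
SNHG19 (chr16:2155339-2155398, minus strand): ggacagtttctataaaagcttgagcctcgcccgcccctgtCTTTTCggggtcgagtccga
SNHG1 (chr11:62855866-62855925, minus strand): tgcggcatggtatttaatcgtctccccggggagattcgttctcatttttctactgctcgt
EPB41L4A-AS1 (chr5:112160486-112160545, plus strand): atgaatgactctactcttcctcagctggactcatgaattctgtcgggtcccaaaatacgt
SNHG20 (chr17:77088603-77088662, plus strand): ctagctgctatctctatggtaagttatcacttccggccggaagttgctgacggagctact
In ZFAS1, SNHG5 and SNHG19 the tract begins at the annotated first base, and in SNHG12 and SNHG7 it begins 1 base before it. The windows of SNHG1, EPB41L4A-AS1 and SNHG20 hold no such tract within 10 bases of the start, which says only that these letters are not there.

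In HEK293 cells the host genes spanned a wide range. Set per kilobase of exonic sequence, so that genes can be compared, the control means were 81.5 CPM for SNHG16, 38.7 for GAS5, 37.2 for SNHG8, 36.3 for SNHG1 and 32.6 for SNHG6. They were 3.71 for SNHG20, 2.69 for SNHG4 and 1.27 for SNHG26. The exonic length counts every annotated exon, so a gene with many rarely used exons has too low a value on this scale. The imprinted hosts SNHG14, which carries the SNORD115 and SNORD116 clusters of the Prader-Willi region, and MEG8, which carries the SNORD113 and SNORD114 clusters, stood at 0.140 ± 0.0904 and 0.261 ± 0.300 CPM in the controls. SNHG18, host of SNORD123, stood at 0.486 ± 0.105 CPM.

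Summed over all 28 members, host genes took 1557, 1411 and 1539 CPM in control 1, 2 and 3, and 1894, 1798 and 1587 CPM in knockdown 1, 2 and 3. On this TMM scale all knockdown-labelled libraries lay above all controls, knockdown 3 by the smallest margin. Without TMM scaling knockdown 3, at 1554 CPM, lay within the range of the controls (1417 to 1581). The means were 1502 ± 79.5 and 1760 ± 157 CPM (SD, n = 3). SNHG16 alone made up 29.1% of the control sum.

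No host gene passed the test: of 25 tested, edgeR's quasi-likelihood test called 0 in either direction (adjusted p under 0.05 over all genes), where it called 0.0% of all genes. At an unadjusted edgeR p under 0.05 there were 7 members with higher values (28.0% of those tested, against 9.93% of all genes) and 2 with lower values (8.0%, against 10.6%). The 7 were SNHG26, SNHG15, EPB41L4A-AS1, ZFAS1, SNHG1, SNHG7 and SNHG20, and the 2 were SNHG9 and SNHG19. DESeq2 called EPB41L4A-AS1 higher (3.06% of all genes were so called) and SNHG9 lower (3.21%), and limma voom called 0 members. With no filter on low counts, edgeR called SNHG26 higher (1.6% of all genes) and SNHG9 and SNHG19 lower (2.03%). The median log2 fold change of the members was 0.21, against 0.02 for all genes tested, and 18 of the 25 were positive, against 51.8% of all genes. In bulk RNA, more RNA per cell and more cells that hold it cannot be told apart.

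**Figure D1:**
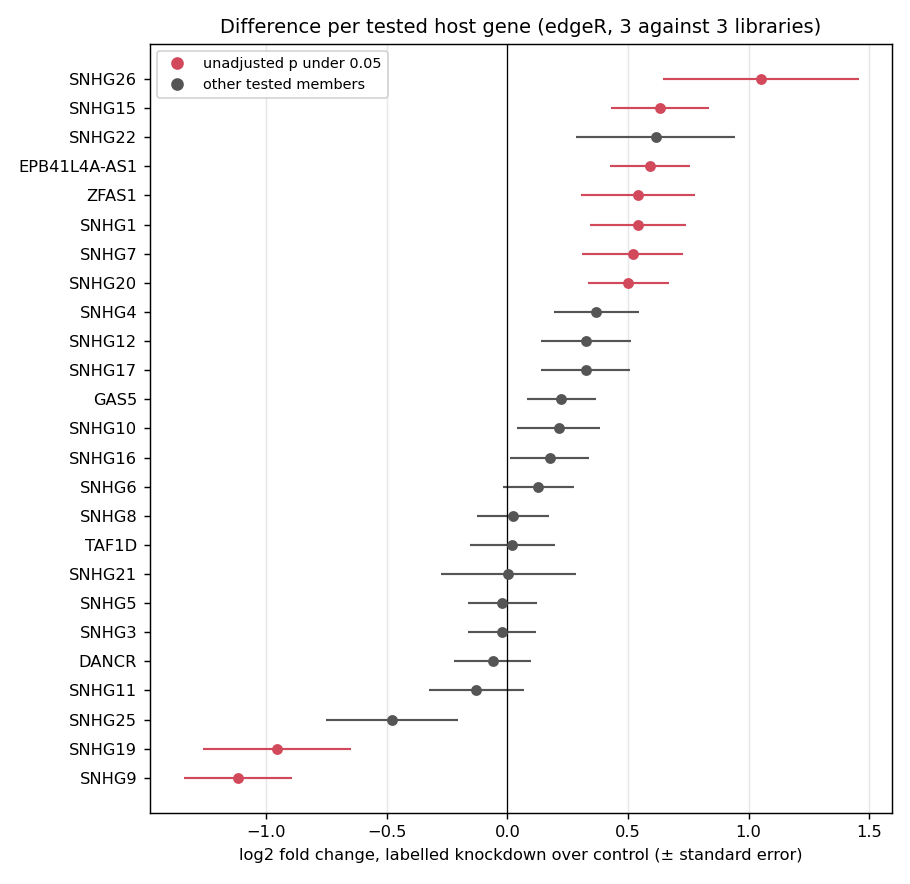
Log2 fold change of each of the 25 tested host genes (horizontal axis; knockdown-labelled libraries over control, 3 against 3), with bars for the standard error and red points for an unadjusted edgeR p under 0.05. SNHG26 lies at the top at 1.05 and SNHG9 at the bottom at -1.12; none passed after adjustment over all genes.

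In the host genes, knockdown 3 stood apart from the other knockdown-labelled libraries. By pairwise chi-square of raw counts over the count table, knockdown 1 and 3 were instead the closest pair of that group. Their chi-square over degrees of freedom was 41.8, against 49.6 for knockdown 1 and 2 and 74.1 for knockdown 2 and 3. In knockdown 1 and 2 the median host gene lay 0.28 and 0.21 (log2 CPM) above the mean of the controls, and in knockdown 3 it lay at -0.02, within the range of the controls (-0.10 to 0.10). In knockdown 1, 16 of the 25 tested members exceeded all 3 controls (37.6% of all genes did) and 5 lay below them (38.5%). In knockdown 2, 14 exceeded them (38.4%) and 6 lay below (39.0%). In knockdown 3, 8 exceeded them (30.6%) and 7 lay below (31.7%), shares near those of all genes. Without knockdown 3, edgeR called 8 of 26 tested members higher (30.8%, against 6.46% of all genes) and 1 lower (3.85%, against 8.3%). The 8 were SNHG26, SNHG22, SNHG15, ZFAS1, SNHG7, SNHG1, EPB41L4A-AS1 and SNHG20, and the 1 lower was SNHG9. Leaving out any other library gave 0 calls among the members.

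**Figure D2:**
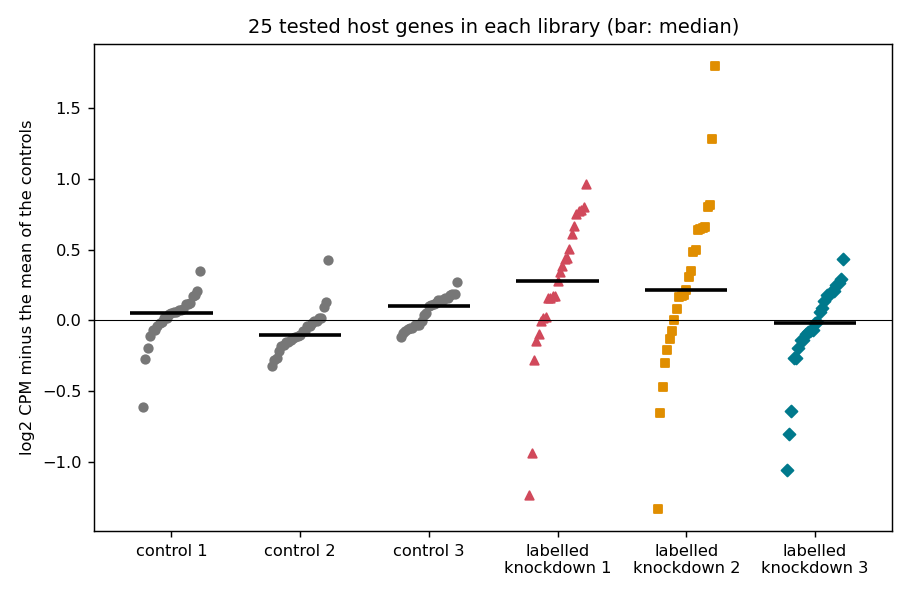
Each point is 1 of the 25 tested host genes in 1 library, as log2 CPM minus the mean of the 3 controls (vertical axis), with the median as a bar; points are sorted within a library. The medians of knockdown 1 and 2 (0.28 and 0.21) lie above those of the controls, and that of knockdown 3 (-0.02) lies among them.

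Among the hosts with higher values, EPB41L4A-AS1, which carries SNORA13, had the smallest edgeR p. It stood at 24.6, 24.1 and 25.7 CPM in the controls, against 42.7, 39.0 and 30.3 CPM in knockdown 1, 2 and 3. The groups did not overlap and the controls spread little, while knockdown 3 lay closest to them (log2 fold change 0.59 with a standard error (SE) of 0.17, adjusted p = 0.111 by edgeR and 0.0392 by DESeq2). SNHG20, host of SCARNA16, stood at 23.3, 21.96 and 22.5 CPM in the controls, against 34.5, 35.3 and 26.1 CPM in the knockdown-labelled libraries. There was no overlap, and knockdown 3 was lowest of its group (log2 fold change 0.50, SE 0.17, edgeR adjusted p = 0.145).

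SNHG15, a short-lived RNA that carries SNORA9, stood at 66.3, 46.0 and 62.2 CPM in the controls, against 112, 89.4 and 69.2 CPM in the knockdown-labelled libraries. Knockdown 3 was just above control 1 (log2 fold change 0.63, SE 0.20, edgeR adjusted p = 0.137). ZFAS1, which starts head to head with ZNFX1 and carries the SNORD12 family, stood at 43.4, 33.0 and 44.6 CPM in the controls, against 68.4, 70.4 and 37.4 CPM. Knockdown 1 and 2 exceeded all controls and knockdown 3 did not (log2 fold change 0.54, SE 0.24, edgeR adjusted p = 0.228). SNHG7, host of SNORA17A and SNORA17B, stood at 44.9, 36.5 and 38.1 CPM in the controls, against 69.2, 62.7 and 39.3 CPM, with knockdown 3 again among the controls (log2 fold change 0.52, SE 0.21, edgeR adjusted p = 0.199).

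SNHG1, the host of SNORD22 and of the SNORD25 to SNORD30 series, also had knockdown 3 lowest of its group. Its values were 142, 117 and 150 CPM in the controls and 215, 236 and 144 CPM in the knockdown-labelled libraries (log2 fold change 0.54, SE 0.20, edgeR adjusted p = 0.169). Knockdown 3 lay between control 1 and control 3. SNHG12, which carries SNORD99, SNORA16A, SNORA44 and SNORA61, stood at 33.8, 28.2 and 34.4 CPM in the controls, against 45.5, 44.8 and 30.5 CPM. Here too only knockdown 1 and 2 exceeded all controls (log2 fold change 0.33, SE 0.19, edgeR adjusted p = 0.344). Without knockdown 3 the log2 fold changes of ZFAS1, SNHG7, SNHG1 and SNHG12 were 0.78, 0.72, 0.72 and 0.49, the first 3 of them past edgeR's adjusted threshold (adjusted p = 0.0124, 0.0125 and 0.0152) and that of SNHG12 not (adjusted p = 0.0604).

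The lowly expressed hosts SNHG26 and SNHG22 had their highest value in knockdown 2, the library with 37.5% of reads outside annotated genes. SNHG26, host of SNORD93, stood at 3.06, 3.14 and 3.78 CPM in the controls, against 5.65, 11.7 and 3.27 CPM in the knockdown-labelled libraries (log2 fold change 1.05, SE 0.41, edgeR adjusted p = 0.187). SNHG22, host of SCARNA17, stood at 10.3, 13.7 and 13.8 CPM and at 17.0, 30.5 and 10.4 CPM (log2 fold change 0.62, SE 0.33, edgeR adjusted p = 0.315). Without knockdown 2 the log2 fold changes were 0.41 and 0.11, and the part of the reads outside genes in these values was not tested.

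**Figure D3:**
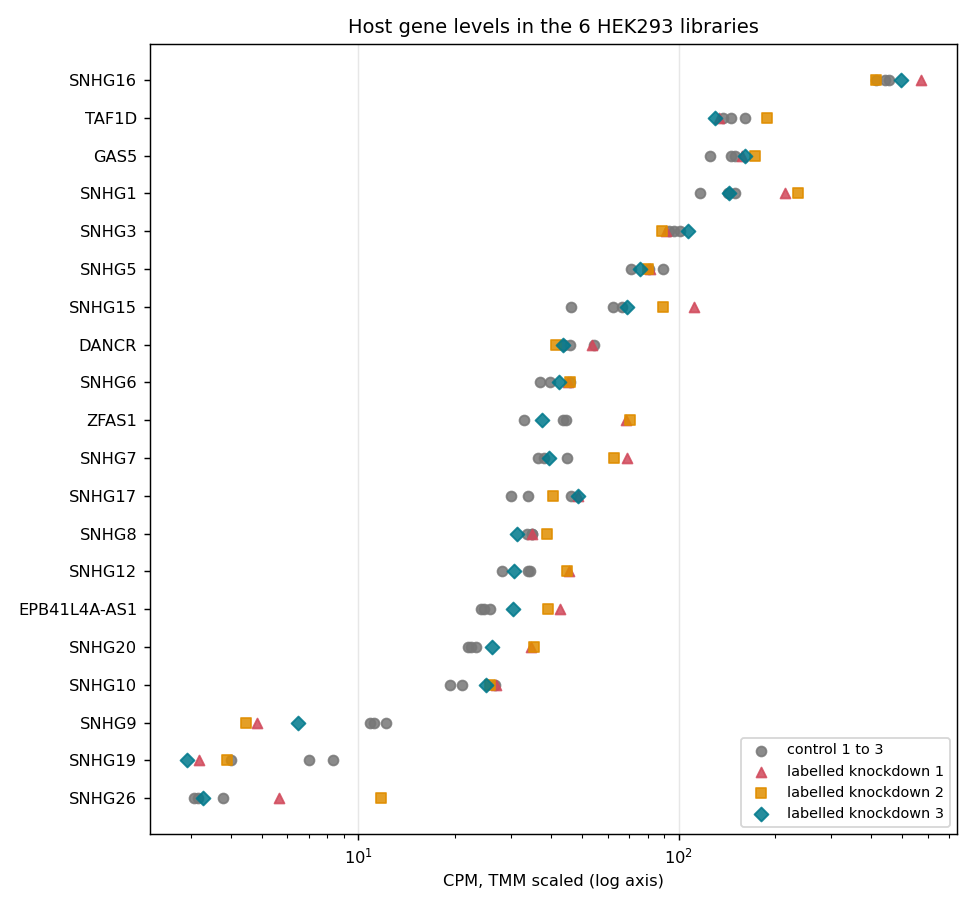
Level of 20 host genes (those at a mean of 20 CPM or more, or with an unadjusted edgeR p under 0.05) in each library, as TMM-scaled CPM on a log axis; grey circles are controls, and triangles, squares and diamonds are knockdown 1, 2 and 3. For SNHG1, ZFAS1 and SNHG7 the triangle and square lie to the right of all controls and the diamond among them, and for SNHG9 all 3 lie to the left.

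Other well expressed host genes lay closer to the controls. SNHG16, host of the SNORD1 family, stood at 454, 442 and 414 CPM in the controls, against 571, 415 and 495 CPM in the knockdown-labelled libraries. Knockdown 2 was level with control 3 (log2 fold change 0.18, SE 0.16, edgeR adjusted p = 0.572). GAS5, whose spliced RNA accumulates when translation is blocked and which carries many box C/D snoRNAs, stood at 146, 126 and 150.2 CPM and at 158, 173 and 161 CPM. Its groups did not overlap, but the gap was small beside the spread of the controls (log2 fold change 0.22, SE 0.14, edgeR adjusted p = 0.396). The 95% interval of the GAS5 difference, on 4 residual degrees of freedom, ran from -0.17 to 0.62. Such intervals use the SE from edgeR's F statistic. The test itself had more degrees of freedom (median 10.6), so the intervals are wider than its p-values imply.

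TAF1D, which encodes a subunit of the selectivity factor of RNA polymerase I and carries 8 annotated snoRNAs, stood at 146, 138 and 162 CPM in the controls, against 134, 189 and 129.6 CPM in the knockdown-labelled libraries. Only knockdown 2 exceeded the controls (log2 fold change 0.02, SE 0.18, edgeR adjusted p = 0.958, 95% interval -0.47 to 0.51). SNHG3, host of SNORA73A and SNORA73B, stood at 101, 97.0 and 93.4 CPM and at 91.0, 88.7 and 107 CPM (log2 fold change -0.02, SE 0.14, edgeR adjusted p = 0.941). SNHG5, host of SNORD50B, stood at 80.7, 70.9 and 89.2 CPM and at 81.3, 80.3 and 75.6 CPM. All 3 values labelled knockdown lay within the range of the controls (log2 fold change -0.02, SE 0.14, edgeR adjusted p = 0.946, 95% interval -0.42 to 0.37).

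DANCR, which carries SNORA26, stood at 45.8, 44.0 and 54.5 CPM in the controls, against 53.5, 41.4 and 43.4 CPM (log2 fold change -0.06, SE 0.16, edgeR adjusted p = 0.858). SNHG6, host of SNORD87, stood at 45.7, 36.8 and 39.7 CPM and at 45.2, 45.9 and 42.3 CPM (log2 fold change 0.13, SE 0.15, edgeR adjusted p = 0.653). SNHG8, host of SNORA24, stood at 34.7, 34.8 and 33.6 CPM and at 34.8, 38.7 and 31.2 CPM (log2 fold change 0.02, SE 0.15, edgeR adjusted p = 0.947). In these hosts the groups overlapped and the controls and the knockdown-labelled libraries differed by less than the spread between replicates.

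SNHG17, which carries the SNORA71 family, stood at 46.1, 30 and 33.9 CPM in the controls, against 48.7, 40.4 and 48.6 CPM (log2 fold change 0.32, SE 0.18, edgeR adjusted p = 0.341). Control 1 lay inside the range of the other group. SNHG10, host of SCARNA13, stood at 19.3, 21.0 and 26.7 CPM and at 26.9, 25.7 and 25.1 CPM (log2 fold change 0.21, SE 0.17, edgeR adjusted p = 0.505). Of the remaining tested members, SNHG4 (SNORA74A) stood at 11.5 to 12.6 CPM in the controls and 14.3 to 17.0 CPM in the knockdown-labelled libraries, SNHG11 (SNORA60) at 9.79 to 11.8 and 8.82 to 10.9 CPM, and SNHG21 (SCARNA15) at 2.11 to 2.52 and 1.90 to 2.60 CPM. Only SNHG4 had no overlap between groups (log2 fold change 0.37, edgeR adjusted p = 0.264).

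SNHG9 had the smallest edgeR p of the host genes, with lower values in every library labelled knockdown. It stood at 10.9, 12.2 and 11.2 CPM in the controls, against 4.81, 4.46 and 6.49 CPM in knockdown 1, 2 and 3 (log2 fold change -1.12 with a standard error of 0.22, adjusted p = 0.0767 by edgeR and 0.000731 by DESeq2). All 3 lay well below all controls, knockdown 3 included, and leaving out any 1 library kept the value between -1.31 and -1.02. SNHG9 (chr16:1964959-1965509, plus strand) is a locus of 551 bases with a head-to-head start 99 bases from that of RPS2. RPS2, the ribosomal protein gene, averaged 1320.0 ± 85.2 CPM in the controls and 1156 ± 193 CPM in the knockdown-labelled libraries, with overlap (log2 fold change -0.19, edgeR adjusted p = 0.561).

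SNHG19 and SNHG25 gave lower values as well. SNHG19 (chr16:2154797-2155358, minus strand) stood at 4.0, 8.31 and 6.998 CPM in the controls, against 3.17, 3.88 and 2.90 CPM. The groups did not overlap, but control 1 was only just above knockdown 2 (log2 fold change -0.95 with a standard error of 0.31, adjusted p = 0.137 by edgeR and 0.0508 by DESeq2). SNHG25 (chr17:64145970-64146476, plus strand) stood at 2.70, 2.56 and 3.07 CPM and at 2.26, 1.97 and 1.74 CPM (log2 fold change -0.48, SE 0.28, edgeR adjusted p = 0.347). With the untested SNHG18, at 0.404 to 0.604 CPM and 0.226 to 0.317 CPM, these were the members whose values in the knockdown-labelled libraries all lay below the controls.

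The groups did not overlap in 5 of the 25 tested members above the controls (20%, against 12.5% of all genes) and in 3 below (12%, against 14.3%). The 5 were GAS5, SNHG15, EPB41L4A-AS1, SNHG20 and SNHG4, and the 3 were SNHG9, SNHG19 and SNHG25. Without knockdown 3, 12 of the 25 lay above the controls (23.0% of all genes did) and 4 below (25%). These shares describe a set of 25 genes, and the part of the members' common features in them was not tested.

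The 3 members below the controls were also the shortest of those tested, a feature seen after their values were known. SNHG25 has 278 bases of annotated exon, SNHG19 342 and SNHG9 551, and every other tested member has 923 or more. The 3 had log2 fold changes of -1.12 to -0.48, and the 22 longer members -0.13 to 1.05 (median 0.27). The 367 tested long noncoding genes with under 600 exonic bases had a median log2 fold change of 0.17, with 8.45% wholly below the controls. The 751 tested genes of every type under that length had a median of 0.12, with 10.8% wholly below. The part of length in the 3 values was not tested.

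**Figure D4:**
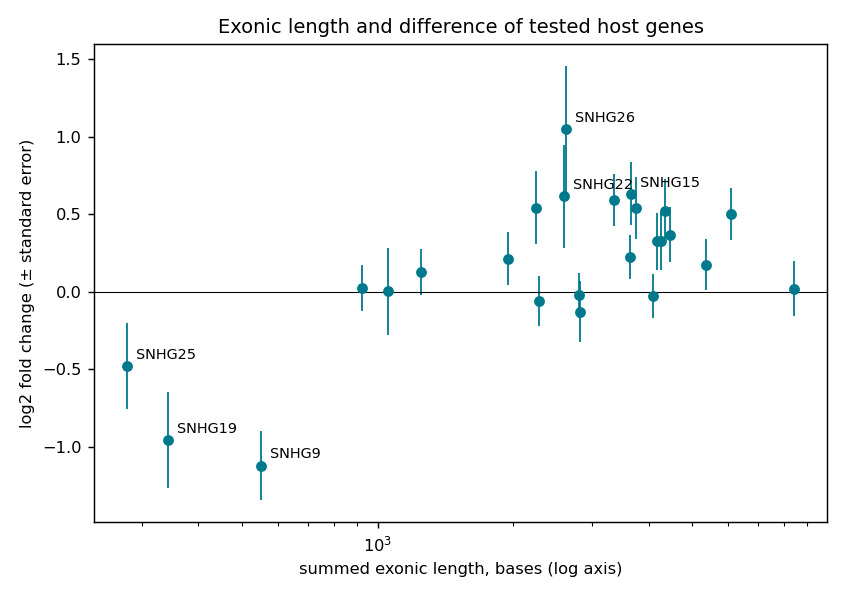
Log2 fold change (vertical axis, bars for the standard error) against summed exonic length in bases (horizontal log axis) for the 25 tested host genes. The 3 members under 600 bases, SNHG25, SNHG19 and SNHG9, have the 3 lowest values, from -1.12 to -0.48.

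The small RNAs inside the hosts were counted as rows of their own. Within the spans of 27 members lay 190 annotated snoRNA or scaRNA genes on the same strand, and 130 of them lie in SNHG14 and MEG8. The same search found no such row for GAS5, so its snoRNAs are not among the 190. Of the 190, 155 were listed at 0 in all 6 libraries, and counting error alone allows each of those up to 3 counts over the libraries, or 0.025 CPM. How the counting treated a small RNA that overlaps an annotated exon of its host is stated in no source used here, so a row at 0 does not speak to the RNA. Among the 15 tested, edgeR called 0, and 0 had an unadjusted p under 0.05.

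Only 2 of them reached a mean of 5 CPM. SNORA73B, a box H/ACA RNA in SNHG3 that acts in ribosomal RNA processing, stood at 140.4, 91.4 and 154 CPM in the controls, against 119, 197 and 96.8 CPM in the knockdown-labelled libraries (log2 fold change 0.10, edgeR adjusted p = 0.865). SCARNA13, in SNHG10, stood at 56.0, 38.8 and 75.6 CPM and at 75.5, 97.4 and 58.1 CPM (log2 fold change 0.44, edgeR adjusted p = 0.344). Both were highest in knockdown 2 and lowest in control 2, and the groups overlapped. SNORD60, the box C/D RNA of SNHG19, stood at 1.07 ± 0.0372 CPM in the controls and 1.30 ± 0.0760 CPM in the knockdown-labelled libraries (log2 fold change 0.28, edgeR adjusted p = 0.638), while its host had the lower values given above. Its raw counts were nearly equal, at 23, 24 and 22 in the controls and 24, 25 and 23 in knockdown 1, 2 and 3. The CPM difference thus rests mostly on library scaling, and the counting error of such low counts is wider than these SDs. SNORD104 in SNHG25 averaged 0.858 ± 0.124 and 1.21 ± 0.455 CPM (log2 fold change 0.49, edgeR adjusted p = 0.483), and SNORA78 in SNHG9 was listed at 0.

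For each of the 3 hosts with lower values 1 small RNA with values given above is shown, with the abundant SNORA73B, as GENCODE 29 gives them, 5′ to 3′ in DNA letters. Capitals mark the first RTGATGA (box C, where R is A or G) and the last CTGA (box D) in SNORD60 and SNORD104, and the ACA that precedes the last 3 bases in SNORA78 and SNORA73B.
SNORD60 (chr16:2155023-2155105, minus strand): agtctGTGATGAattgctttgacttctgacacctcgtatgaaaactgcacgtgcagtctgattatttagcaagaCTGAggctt
SNORD104 (chr17:64146083-64146152, plus strand): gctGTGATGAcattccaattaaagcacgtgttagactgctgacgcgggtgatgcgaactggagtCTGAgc
SNORA78 (chr16:1965184-1965310, plus strand): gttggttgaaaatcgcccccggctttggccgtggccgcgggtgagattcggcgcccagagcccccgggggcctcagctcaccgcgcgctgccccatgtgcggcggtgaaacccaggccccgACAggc
SNORA73B (chr1:28508559-28508762, plus strand): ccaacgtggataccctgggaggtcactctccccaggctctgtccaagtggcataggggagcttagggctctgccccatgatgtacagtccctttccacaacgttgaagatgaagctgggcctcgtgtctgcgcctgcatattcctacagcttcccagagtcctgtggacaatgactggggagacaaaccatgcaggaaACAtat
SNORD60 has the classic plan of its class, with box C near the 5′ end and box D near the 3′ end, and both H/ACA RNAs end in ACA plus 3 bases.

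Members with and without a tract at the start were set side by side. The 13 tested members with a tract within 10 bases had a median log2 fold change of 0.18 (range -0.95 to 1.05), and the 8 without had 0.36 (-0.02 to 0.62). Counted within 3 bases, the medians were 0.32 for 9 members with a tract and 0.22 for 12 without. The order of the medians thus turned with the window. The split also rests on the RefSeq start used. GAS5 was counted as without a tract, yet 6 of its 29 GENCODE 29 transcripts began with one. DANCR was counted as with a tract, yet 0 of its 5 transcripts began with one.

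Genes on the other strand are a separate readout of the same loci. Of 30 such genes that overlap a member or start within 1000 bases of its start, 23 were tested, 20 of them beside a tested host, and 9 of the 20 had a log2 fold change of the same sign as the host. At an unadjusted edgeR p under 0.05, 1 was higher (9.93% of all genes) and 4 were lower (10.6%), with 0 called after adjustment. GLRX5, which encodes a mitochondrial iron-sulfur cluster protein and overlaps SNHG10, averaged 51.1 ± 6.86 CPM in the controls and 71.0 ± 5.05 CPM in the knockdown-labelled libraries (log2 fold change 0.47, edgeR adjusted p = 0.135). ZBTB37, which overlaps GAS5, averaged 52.7 ± 11.98 CPM in the controls and 34.0 ± 2.50 CPM in the knockdown-labelled libraries (log2 fold change -0.63, edgeR adjusted p = 0.112). EPB41L4A, opposite to EPB41L4A-AS1, averaged 13.4 ± 1.54 and 9.29 ± 1.38 CPM (log2 fold change -0.53, edgeR adjusted p = 0.186), the other direction from that of the antisense host. SIL1 beside SNHG4 and ACAA2 beside SNHG22 also had negative values (-0.65 and -0.79), and SLC3A2 beside SNHG1 had 0.47 (edgeR adjusted p = 0.331). The libraries were stranded but no source used here gives the strand setting of the counting, so values of overlapping pairs are uncertain.

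Genes for proteins that bind and assemble snoRNAs had mostly positive log2 fold changes. Of 20 tested snoRNP core and assembly genes, 15 were positive (51.8% of all genes were), with a median log2 fold change of 0.24. After adjustment edgeR called 0. At an unadjusted edgeR p under 0.05, 6 were higher (9.93% of all genes) and 0 lower (10.6%). ZNHIT6, an assembly factor of box C/D particles, averaged 65.2 ± 5.64 CPM in the controls and 119 ± 33.8 CPM in the knockdown-labelled libraries (log2 fold change 0.87, edgeR adjusted p = 0.0912). NUFIP1, an assembly factor, averaged 21.1 ± 3.27 and 31.1 ± 6.35 CPM, the core protein NOP58 237 ± 17.3 and 320.5 ± 48.8 CPM, and the H/ACA core protein GAR1 15.1 ± 0.396 and 20.7 ± 2.65 CPM. Without knockdown 3, edgeR called 3 of the 20 higher (6.46% of all genes). Medians over the list came to 0.49, 0.04 and 0.20 in knockdown 1, 2 and 3, so that knockdown 2, unlike for the hosts, was level with the controls.

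Factors of nonsense-mediated decay had mostly positive log2 fold changes. Of 21 tested, 16 were positive (51.8% of all genes were) and edgeR called 0 after adjustment, with a median log2 fold change of 0.20. At an unadjusted edgeR p under 0.05, 4 were higher (9.93% of all genes) and 0 lower (10.6%). They were RBM8A and CASC3 of the exon junction complex, at 185 ± 4.70 and 272 ± 66.5 CPM and at 121 ± 8.78 and 159 ± 21.3 CPM, the helicase UPF1 at 86.6 ± 8.22 and 120.4 ± 25.8 CPM, and SMG5 at 185 ± 18.1 and 245 ± 45.1 CPM. Several of these factors are themselves known targets of the pathway.

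Protein-coding mRNAs known as decay targets had higher means throughout the list. All 15 were tested, each with a log2 fold change above 0 (median 0.38), where 51.8% of all genes were positive. After adjustment edgeR called 0. At an unadjusted edgeR p under 0.05, 5 were higher (9.93% of all genes) and 0 lower (10.6%). CDKN1A, an inhibitor of cyclin-dependent kinases, averaged 170.3 ± 42.1 and 359 ± 157 CPM, the splicing factor SRSF7 274 ± 10.3 and 387 ± 69.1 CPM, the kinase PIM3 69.98 ± 8.67 and 98.1 ± 16.5 CPM, and the growth arrest gene GADD45A 50.1 ± 5.62 and 96.1 ± 49.6 CPM. The groups overlapped for CDKN1A and GADD45A. In knockdown 3 CDKN1A, at 178.3 CPM, lay within the controls (126.0 to 209.8) and GADD45A, at 41.52 CPM, below them (43.69 to 54.22). In 6 of the 15 all values lay above the controls (12.5% of all genes). The list medians of 0.56, 0.44 and 0.18 in knockdown 1, 2 and 3 had the order of those of the host genes. So did the medians of the decay factors above, at 0.24, 0.14 and 0.11, although control 1 reached 0.104 in that list. In knockdown 3 the host gene median, at -0.017, lay among the controls. An order of 3 libraries can match by accident, and a link between the lists was not tested. Without knockdown 3, edgeR called 4 of the 15 higher (6.46% of all genes). Counts per gene do not separate the isoforms that are decayed. This list was chosen with earlier results of these data known, so its shared direction is no independent result.

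Protein-coding genes that carry snoRNAs were set beside the noncoding hosts. Of 32 tested, edgeR called 0 after adjustment, and the median log2 fold change was 0.18. At an unadjusted edgeR p under 0.05, 9 were higher (9.93% of all genes) and 0 lower (10.6%). NCL, the nucleolar protein nucleolin, averaged 1236 ± 72.8 and 1853 ± 222 CPM, WDR43, a factor of small subunit assembly, 234 ± 17.3 and 383 ± 117 CPM, the chaperone HSPA8 2097 ± 247 and 3406 ± 1153 CPM, and PRRC2A 299 ± 29.6 and 421 ± 73.5 CPM. In 12 of the 32 all values lay above the controls (12.5% of all genes) and in 2 all lay below (14.3%). Their medians of 0.28, 0.05 and 0.21 in knockdown 1, 2 and 3 did not have the order seen in the noncoding hosts.

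Ribosomal protein genes and a list of translation factor mRNAs, classes known for a pyrimidine start, had smaller median log2 fold changes than the host genes. The starts of these genes were not examined here, and the ribosomal protein list was made by symbol, paralogues included. Of 85 tested ribosomal protein genes, edgeR called 0 after adjustment. At an unadjusted edgeR p under 0.05, only RPL22L1 was higher (9.93% of all genes were) and 0 were lower (10.6%). The median log2 fold change was 0.02, the same as over all genes. RPL22L1, a paralogue of RPL22, averaged 12.1 ± 1.33 and 20.4 ± 5.97 CPM. Of 17 tested translation factors and related mRNAs listed for such a start, 0 were called after adjustment (median of the list 0.10). Among them 1, EEF1D, was higher at an unadjusted edgeR p under 0.05, at 173 ± 6.26 and 244 ± 16.5 CPM. In knockdown 1, 2 and 3 the ribosomal protein medians were 0.135, -0.26 and 0.114, with controls from -0.098 to 0.109. Those of the translation factor list were 0.219, -0.21 and 0.252, with controls from -0.006 to 0.015. The median of the host genes in knockdown 2 was 0.21. Log2 fold changes were above 0 in 47 of the 85 and 12 of the 17 (51.8% of all genes). Several genes stand in more than 1 of these lists (NOP56 and DKC1, for example), so the lists are not independent of each other.

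**Figure D5:**
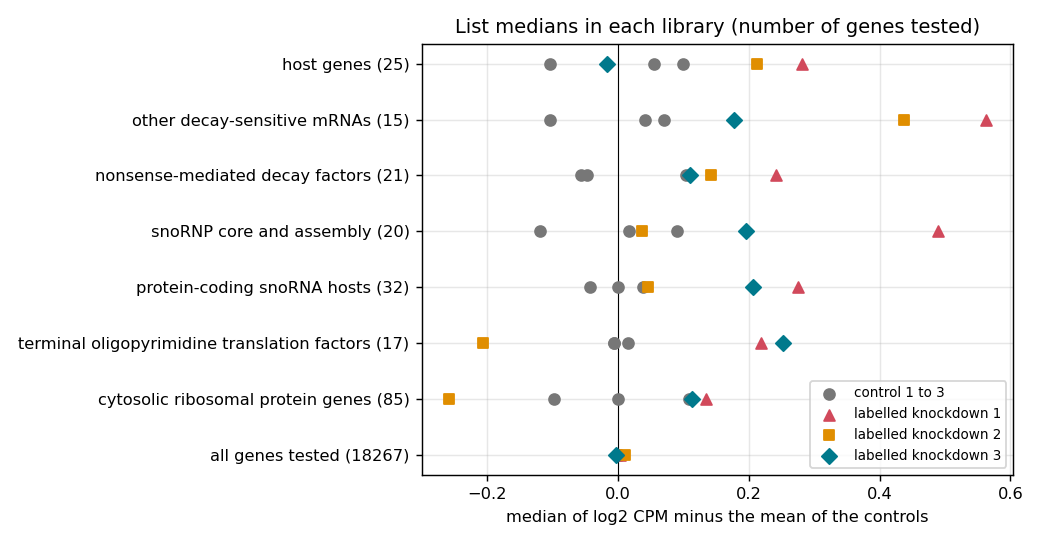
Median over the tested genes of each list of log2 CPM minus the mean of the controls (horizontal axis), for each library; grey circles are controls, and triangles, squares and diamonds are knockdown 1, 2 and 3. Host genes and other decay-sensitive mRNAs have knockdown 1 and 2 to the right (0.28 and 0.21, 0.56 and 0.44), while ribosomal protein genes have knockdown 2 to the left (-0.26).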

How the data were processed

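Total RNA was made into stranded libraries with a Ribo-Zero Gold kit, as the labels' protocols state. The authors deposited raw read counts per Ensembl gene, made with bcl2fastq 2.18, TopHat2 2.0.13 and HTSeq on hg38, per the submitters' processing notes. No source used here gives the HTSeq version, annotation or strand setting. The 5 special HTSeq rows stayed out of library sizes and tests. Symbols and exons came from GENCODE 29 (GRCh38), which matched 57055 of 60675 rows. Groups came from the sample titles.

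Counts were tested with edgeR 4.0.16 (R 4.3.3): TMM factors, filterByExpr, a two-sided quasi-likelihood F test of group, and Benjamini-Hochberg adjustment over 18267 genes at 0.05. CPM values are TMM scaled, with a prior count of 2 on the log2 scale. The code was tested on simulated data. No replicate pair agreed within sampling noise (chi-square over degrees of freedom 11.4 to 74.1).

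Tested members were named, in full from a mean of 20 CPM or an unadjusted p under 0.05. Up to 4 genes were named for each other list by smallest p under 0.05, snoRNAs from 5 CPM, and neighbours under 0.05. SNHG22, SNORD60, SNORD104, SNORA78, RPS2, SLC3A2 and the length split were chosen after values were seen. Members and lists were chosen with earlier results of these data known.

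The alternatives were other factors and filters, DESeq2 1.42.0, limma voom 3.58.1, protein-coding and long noncoding genes only, a replicate block and the omission of each library in turn. Adding genes with newer SNHG symbols was an alternative chosen after seeing the data. No set test was run.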

Additional observations from a re-analysis of the deposited data

Results flagged for a closer look

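Reads outside annotated genes are used by no comparison here. They made up 37.5% of uniquely aligned reads in knockdown 2, above the 23.6% to 25% of the controls, while knockdown 1 and 3 had 22.3% and 21.5%. Host genes took 0.188% of gene reads in knockdown 2 and 0.179% in knockdown 1, both above the controls (0.142% to 0.158%), and 0.155% in knockdown 3, within their range.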

How the results depend on the processing

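Across 350 values of single members under the alternatives, 316 kept their direction and side of the threshold, 14 passed it and 20 changed sign. The sign changes were in 6 members near 0, and 19 members kept their sign throughout. Negative values replaced positive ones for TAF1D (-0.013), SNHG8 (-0.0066) and SNHG21 (-0.025) with no filter, and for SNHG21 with voom (-0.0064) and the replicate block (-0.0020). Upper-quartile factors turned MOCS2 to 0.0095. With 1 library left out, TAF1D ran from -0.18 to 0.11, SNHG3 from -0.12 to 0.020, SNHG5 from -0.11 to 0.049, DANCR from -0.18 to 0.026, SNHG8 from -0.066 to 0.092, SNHG21 from -0.091 to 0.12 and MOCS2 from -0.094 to 0.027. Over all genes, higher and lower calls numbered 559 and 586 by DESeq2 and 694 and 880 with no filter. Among members these were 1 and 1 by DESeq2 and 1 (SNHG26) and 2 (SNHG9 and SNHG19) with no filter. Lists gained higher calls: by DESeq2, 3 snoRNA-carrying coding genes, 2 decay-sensitive mRNAs and 1 each of the snoRNP, ribosomal protein and translation factor lists; with no filter, 2, 3, 1, 1 and 0.

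Leaving out 1 library gave 0 to 1232 higher and 0 to 1583 lower calls over all genes and 0 to 8 higher and 0 to 1 lower among members, the most without knockdown 3. Members higher at an unadjusted edgeR p under 0.05 ran from 2 (without control 2; 3 without knockdown 1, 4 without knockdown 2) to 10, and lower ones from 1 (without control 2) to 2. Members wholly above the controls ran from 5 to 12 (8 without control 1 or 3, 12 without knockdown 3), and below from 3 to 4; over all genes these shares ran from 15.2% to 23% and from 16.8% to 25%. The member median ran from 0.16 to 0.26. Higher calls ran from 0 to 5 for coding hosts, 0 to 4 for decay-sensitive mRNAs, 0 to 3 for the snoRNP list and 0 to 1 for decay factors and ribosomal proteins, and lower calls from 0 to 1 for translation factors. List medians ran from 0.11 to 0.26, 0.28 to 0.45, 0.09 to 0.32, 0.14 to 0.21, -0.07 to 0.13 and 0.02 to 0.24 in this order. The cause of these changes was not tested.

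Replicate numbers showed no steady pairing of the libraries. Deviations of same-numbered libraries from their group mean correlated at 0.155, -0.161 and -0.130 over 15912 genes. Only number 1 correlated best with its own number. With so few libraries per group, these values cannot tell whether same-numbered libraries were prepared together. With the replicate block, 6 genes were called higher and 13 lower over all genes. The low counts of SNHG18, SNHG14 and MEG8 (37 to 46 in all) limit what can be said of them.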

Other observations

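A newer symbol table gives 4 more genes an SNHG name that they lack in GENCODE 29, and they are not among the 28 members. SNHG32, listed there as C6orf48, averaged 79.7 ± 8.46 CPM in the controls and 114 ± 20.7 CPM in the knockdown-labelled libraries, with no overlap (log2 fold change 0.52, edgeR adjusted p = 0.139). SNHG29, listed as LRRC75A-AS1, averaged 355 ± 15.6 and 322 ± 60.9 CPM (log2 fold change -0.14, edgeR adjusted p = 0.678). SNHG30 averaged 23.9 ± 2.88 and 22.9 ± 4.66 CPM and SNHG31 2.47 ± 0.519 and 2.81 ± 0.379 CPM. With these 4 added, 8 genes had higher values at an unadjusted edgeR p under 0.05 in place of 7, and the median log2 fold change was 0.19 in place of 0.21.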
